A study of Homo sapiens with 12 samples.

Results

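The SOX2 knock-down in NTera-2 cells was taken from the deposited dCt table as its 3 columns of control siRNA and 3 columns of SOX2 siRNA, which are 6 of the 12 samples of the study. NTera-2 is a human embryonal carcinoma line of pluripotent character, grown from a testicular germ cell tumour and able to differentiate, into neurons among other cells. Cells were transfected for 6 h with 30 nM of siRNA, either a non-targeting negative control (NC, n = 3) or an siRNA against SOX2 (siSOX2, n = 3), and RNA was taken after 72 h. The other 6 samples are a SOX2 knock-down in 2102Ep, an embryonal carcinoma line that does not differentiate readily, with 15 nM of siRNA and another lipofection reagent. All samples are labelled as biological replicates, and apart from the siRNA both NTera-2 groups had the same treatment. MiRNAs were measured by pre-amplified TaqMan PCR on 2 array cards, A and B. A Ct is the PCR cycle at which the signal passes a threshold, so that a lower Ct means more template, each cycle being close to 1 log2 unit. The dCt is the Ct minus a reference value for each sample and card. Of 501 assays in the table, 451 were measured (raw Ct under 40) in at least 2 of 3 samples of each group, and 445 in all 6. Of these, 438 assays carry a human label and 13 the label of mouse, rat or fly. The question of the comparison was which miRNAs depend on SOX2 in these cells.

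SOX2 is a transcription factor that, with OCT4 and NANOG, keeps embryonic stem and embryonal carcinoma cells pluripotent, and it later marks neural progenitors. A miRNA is cut from a hairpin transcript, which can release a strand from each arm, the minor strand being marked by a star in the assay names. It represses mRNAs that match its seed, the bases near its 5′ end, so miRNAs with the same seed share targets. Pluripotent cells are known for the miR-302 and miR-371 clusters and for the primate-specific cluster C19MC, while miR-145 is known to repress SOX2 itself.

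In siSOX2 cells miR-342-5p, miR-375, miR-145, miR-184, miR-138, miR-193b, miR-218 and miR-642 rose, and both strands of miR-31, all 3 assays of the miR-135 family, miR-181a-2*, miR-522, miR-372, miR-1251, miR-7 and 7 others fell. Of 451 assays tested with limma, 25 were called at a Benjamini-Hochberg adjusted p under 0.05, which is 5.54% of the assays, 8 of them higher (1.77%) and 17 lower (3.77%). The change was over 2-fold in 22 of the 25. In each of the 25 the groups did not overlap, which held for 131 of all 451 assays (29.0%). Before adjustment 98 assays (21.7%) had a p of 0.05 or less, of which 20 were higher (4.43%) and 78 lower (17.3%). Deviations from the group mean in NC and siSOX2 samples of the same replicate number correlated weakly, by 0.118, 0.265 and 0.16. The labels state no pairing. With the replicate as a block 9 assays (2.0%) were called. These were miR-184, miR-375 and miR-342-5p, which rose, and miR-522, miR-31*, miR-135a, miR-135b, miR-181a-2* and miR-10b, which fell. All but miR-10b are among the 25. The count fell to 10 without NC replicate 3, to 15 without siSOX2 replicate 1 and to 14 without siSOX2 replicate 2. The limma fit takes its spread from all 12 samples, and with the NTera-2 samples alone 11 were called, 3 higher and 8 lower.

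**Figure D1:**
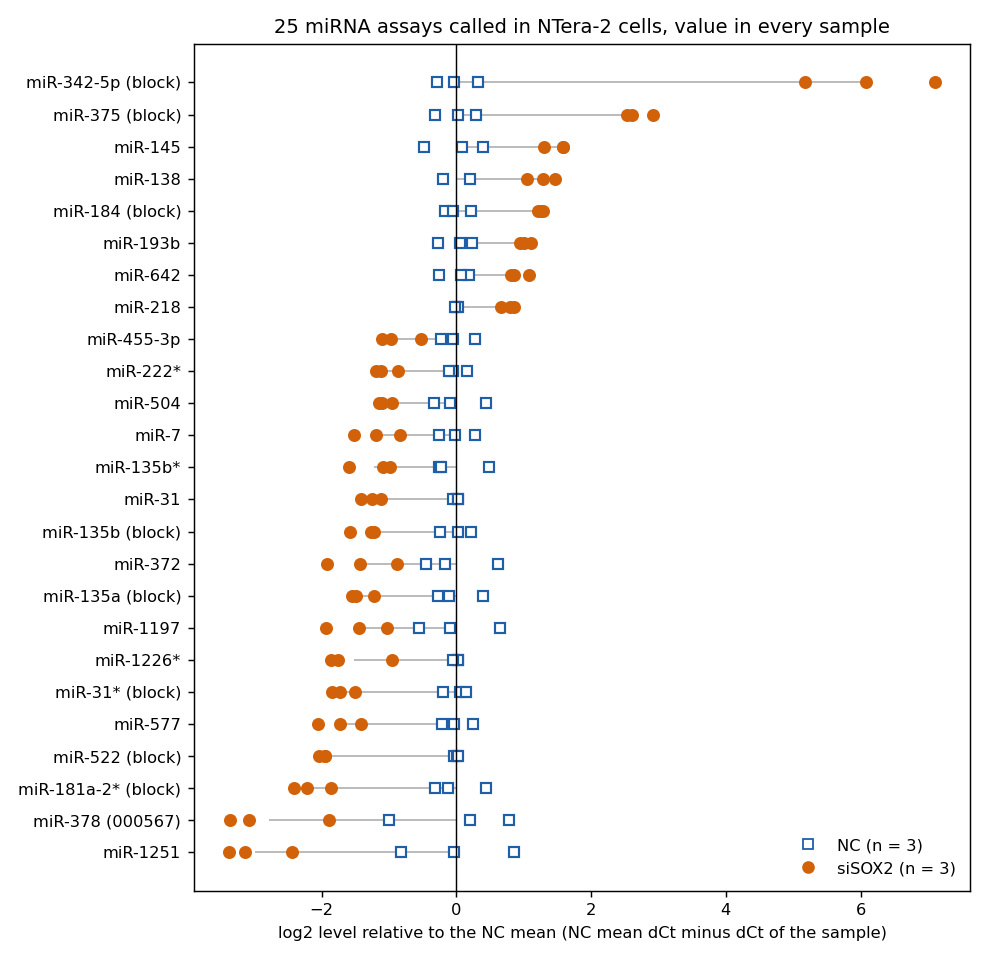
Level of each of the 25 called assays in every NTera-2 sample, as log2 relative to the NC mean (x axis), with open squares for NC and filled circles for siSOX2, n = 3 each (2 NC values for miR-138). No siSOX2 circle reaches an NC square in any row. "(block)" marks the 8 assays also called with the replicate as a block.

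The mature sequences of the called miRNAs on which most of the results turn are printed here 5′ to 3′ from RefSeq (GRCh38.p14), to show which of them share a seed. Capitals mark the seed, bases 2 to 8. The sequence table held 23 of the 25 called miRNAs and 364 of the 451 tested assays. MiR-522 and miR-31* are named only.
miR-135b: uAUGGCUUuucauuccuauguga
miR-135a: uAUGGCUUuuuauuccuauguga
miR-135b*: aUGUAGGGcuaaaagccauggg
miR-31: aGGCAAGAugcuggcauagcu
miR-181a-2*: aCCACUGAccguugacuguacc
miR-1251: aCUCUAGCugccaaaggcgcu
miR-7: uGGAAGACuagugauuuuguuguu
miR-372: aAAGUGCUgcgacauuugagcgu
miR-375: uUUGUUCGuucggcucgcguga
miR-342-5p: aGGGGUGCuaucugugauuga
miR-184: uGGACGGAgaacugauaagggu
miR-145: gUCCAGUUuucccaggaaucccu
miR-218: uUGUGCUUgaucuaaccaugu
miR-138: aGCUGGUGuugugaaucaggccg
miR-193b: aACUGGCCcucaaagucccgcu
MiR-135a and miR-135b have the same seed and differ by U11C, counted from the 5′ end with the base of miR-135a first. No other pair in this set has a seed in common.

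MiR-135b (chr1:205448361-205448383, minus strand, within the spans of LEMD1 and BLACAT1) belongs to a family that represses the Wnt pathway inhibitor APC. Its dCt was 3.92, 3.46 and 3.65 in NC and 5.25, 4.94 and 4.90 in siSOX2 samples. All siSOX2 samples had less miR-135b than any NC sample. This is a log2 change, siSOX2 over NC, of -1.35 (standard error, SE, 0.19, adjusted p = 0.0023 from limma, 0.016 with the replicate block). MiR-135a, which can come from MIR135A1 on chromosome 3 (within GLYCTK) or MIR135A2 on chromosome 12, had dCt values of 5.88, 5.37 and 6.04 in NC and 7.26, 6.98 and 7.31 in siSOX2 samples. It fell by 1.42 on the log2 scale (SE 0.25, adjusted p = 0.011, 0.046 with the block). The minor strand miR-135b*, on the other card, fell by 1.22 (SE 0.29, adjusted p = 0.031), from 6.06, 5.31 and 6.02 to 6.89, 6.78 and 7.39. Its call was lost with the block (adjusted p = 0.053). All 3 measured assays of the family were thus lower, with a median log2 change of -1.35 beside -0.27 over all 451 assays.

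MiR-31 (chr9:21512158-21512178, minus strand, within MIR31HG), known from work on tumour invasion, had dCt values of 4.89, 4.81 and 4.81 in NC and 6.26, 5.96 and 6.10 in siSOX2 samples, and the groups were over a cycle apart. The log2 change was -1.27 (SE 0.20, adjusted p = 0.0049). With the block the adjusted p was 0.053. The other strand of the hairpin, miR-31*, read on card B, had 6.39, 6.30 and 6.64 in NC and 7.94, 8.29 and 8.17 in siSOX2 samples. It fell by 1.69 (SE 0.22, adjusted p = 0.0020, 0.012 with the block), and no siSOX2 value came near an NC value. MiR-31* and miR-522 were called under all 20 alternative settings.

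Of the miR-181 family, known for setting the sensitivity of T cell receptors, 3 assays were measured and all had log2 changes below 0. MiR-181a-2*, the minor strand of MIR181A2 (chr9:124692518-124692539, plus strand, within MIR181A2HG and NR6A1), had dCt values of 7.47, 6.90 and 7.66 in NC and 9.20, 9.56 and 9.75 in siSOX2 samples. Every siSOX2 sample was over a cycle lower in level than every NC sample. The log2 change was -2.16 (SE 0.31, adjusted p = 0.0024, 0.010 with the block). The major strand miR-181a, which MIR181A1 on chromosome 1 also encodes, was at 11.91, 11.32 and 11.98 in NC and 13.79, 12.69 and 12.88 in siSOX2 samples. The groups did not overlap, but miR-181a, with a log2 change of -1.38 and a SE of 0.93, was not called (adjusted p = 0.45). This SE is from the limma fit over all 12 samples, which pools the spread of both lines, and not from the values above alone. With limma on the NTera-2 samples alone the adjusted p was 0.13, also without a call. MiR-181c, weak at a mean raw Ct of 30.4, had a log2 change of -2.92 (SE 1.11, adjusted p = 0.19) and overlapping groups.

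MiR-522 of the C19MC cluster on chromosome 19 (hairpin at chr19:53751211-53751297, plus strand) had dCt values of 9.19, 9.13 and 9.12 in NC and 11.09, 11.09 and 11.19 in siSOX2 samples. The values hardly differed within a group, and the groups were nearly 2 cycles apart. It fell by 1.98 on the log2 scale (SE 0.20, adjusted p = 3.2e-04, 0.010 with the block). Its neighbours within 10000 bases on the same strand that were measured, miR-517c and miR-519a, had log2 changes of -0.53 (adjusted p = 0.11) and -0.49 (adjusted p = 0.17). Over the 22 measured assays of C19MC, a cluster active in placenta and in embryonic cells, 19 were below 0, 1 was called and 7 were lower before adjustment, or 86.4% below 0 and 31.8% at a p of 0.05 or less, beside 71.4% and 21.7% of all assays. The median was -0.48 beside -0.27, and it was -0.17 with the global mean and -0.25 with the global median as reference, which put the median of all assays at 0.05 and -0.06.

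MiR-1251 (chr12:97491913-97491933, plus strand) lies within RMST, a long non-coding RNA of neural progenitors known to bind SOX2, and MIR135A2 lies within RMST too. Its dCt was 11.02, 9.34 and 10.24 in NC and 13.57, 13.34 and 12.63 in siSOX2 samples, with a spread in NC of 0.84 (SD, n = 3). It fell by 2.98 (SE 0.49, adjusted p = 0.024, 0.056 with the block). MiR-577, within UGT8 on chromosome 4, fell by 1.73 (SE 0.40, adjusted p = 0.031), from 10.31, 9.86 and 10.14 to 11.83, 12.15 and 11.51. MiR-7, a miRNA of neurons and endocrine cells that comes from several hairpins and was read here by an assay with a fly label, had 7.38, 7.10 and 7.63 in NC and 8.88, 8.21 and 8.56 in siSOX2 samples. All siSOX2 samples lay below the NC samples in level, by a mean of 1.18 on the log2 scale (SE 0.26, adjusted p = 0.026). With the block the adjusted p was 0.067 for miR-577 and 0.053 for miR-7.

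The remaining 7 that fell were miR-372, miR-222*, miR-378, miR-504, miR-1197, miR-1226* and miR-455-3p. MiR-372, a miRNA of germ cell tumours from the miR-371 cluster, had dCt values of 8.69, 7.63 and 8.41 in NC and 10.16, 9.67 and 9.12 in siSOX2 samples, and it fell by 1.40 (SE 0.32, adjusted p = 0.026). MiR-222*, which shares its transcript with miR-221, fell by 1.06 (SE 0.24, adjusted p = 0.026), and the other strand miR-222 and miR-221 had log2 changes of -0.64 and -0.58 without a call (adjusted p = 0.088 and 0.11). For miR-378 the card holds assays of both strands of MIR378A, within the metabolic regulator PPARGC1B. The miR-378a-5p assay, weak at a mean raw Ct of 29.5 (NC) and 32.1 (siSOX2), fell by 2.77 (SE 0.54, adjusted p = 0.017), while the miR-378a-3p assay had -0.87 (SE 0.32, adjusted p = 0.14). MiR-504, within FGF13, fell by 1.07, miR-455-3p, within the cartilage collagen gene COL27A1, by 0.87, miR-1226*, within DHX30, by 1.52, and miR-1197 of the DLK1-DIO3 cluster by 1.47 (adjusted p = 0.024, 0.038, 0.038 and 0.026). None of these 7 was called with the block, where adjusted p-values lay between 0.053 and 0.087.

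Among the miRNAs that rose, miR-375 (chr2:219001648-219001669, minus strand), known from pancreatic islets, had dCt values of 11.70, 11.43 and 12.05 in NC and 9.19, 8.82 and 9.12 in siSOX2 samples. The groups were over 2 cycles apart. The log2 change was 2.68 (SE 0.22), a 6.43-fold rise, with the smallest adjusted p of all assays (1.05e-04, 0.0043 with the block). The other measured assays of the endoderm list, miR-192, miR-192*, miR-194 and miR-215, were not called.

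MiR-342-5p (chr14:100109673-100109693, plus strand, within EVL) had the largest log2 change of all assays, 6.12 (SE 0.51, adjusted p = 0.0020, 0.010 with the block). Its dCt was 14.96, 15.55 and 15.31 in NC and 8.17, 9.19 and 10.11 in siSOX2 samples, and its mean raw Ct went from 29.97 to 23.84. The siSOX2 samples differed among themselves by almost 2 cycles, yet all were over 4 cycles from any NC sample. The other arm of the same hairpin, miR-342-3p, was at 6.92, 5.81 and 6.45 in NC and 6.44, 5.94 and 6.34 in siSOX2 samples. These groups overlapped, and the log2 change was 0.15 (SE 0.33, adjusted p = 0.86). MiR-342-5p was measured in too few 2102Ep samples to be compared there.

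MiR-184, found in cornea and lens, rose by 1.25 (SE 0.17, adjusted p = 0.0023, 0.037 with the block). Its dCt went from 11.90, 12.28 and 12.17 to 10.90, 10.86 and 10.83, with an SD of 0.036 in the siSOX2 samples. MiR-145, a smooth muscle miRNA from the CARMN locus on chromosome 5, had dCt values of 10.98, 10.10 and 10.41 in NC and 8.91, 8.91 and 9.19 in siSOX2 samples, all 3 higher in level than any NC sample. It rose by 1.49 (SE 0.26, adjusted p = 0.012, 0.067 with the block). The other strand miR-145* was not called, at -0.80 (adjusted p = 0.35), and miR-143 of the same locus was listed but not measured. Among the other miRNAs reported to repress SOX2, miR-126 had a log2 change of -0.54 (adjusted p = 0.12) and miR-9* of 0.12 (adjusted p = 0.82).

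MiR-218, a motor neuron miRNA encoded within SLIT2 and SLIT3, had values of 8.85, 8.83 and 8.88 in NC and 8.20, 8.05 and 8.0 in siSOX2 samples. The NC samples were within 0.05 cycles of each other and the siSOX2 samples all lay clear of them. It rose by 0.77 on the log2 scale (SE 0.16, adjusted p = 0.023). MiR-138, known from neuronal dendrites and encoded on chromosomes 3 and 16, was measured in NC at 12.68 and 12.28, with the value of NC replicate 2 missing, and in siSOX2 samples at 11.43, 11.02 and 11.20. It rose by 1.27 (SE 0.25, adjusted p = 0.024, over 5 samples), and with the missing values set to Ct 40 the change was 5.62 without a call (adjusted p = 0.31). MiR-193b, within MIR193BHG on chromosome 16, rose by 1.02 (SE 0.22, adjusted p = 0.024), from 7.63, 7.12 and 7.30 to 6.41, 6.24 and 6.34. Its minor strand miR-193b* had a log2 change of 2.48 without a call (SE 0.65, adjusted p = 0.094), and miR-365, encoded close by on the same strand, was at 0.04 (adjusted p = 0.98). MiR-642, within GIPR, rose by 0.92 from a weak level (mean raw Ct 29.8 in NC, adjusted p = 0.026). With the block the adjusted p of miR-218, miR-138 and miR-193b was 0.067 each and that of miR-642 was 0.093.

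MiR-10b, encoded in a HOX cluster, was called only with the block (adjusted p = 0.046, against 0.071 without it). Its dCt was 18.44, 17.19 and 16.44 in NC and 21.03, 21.76 and 18.54 in siSOX2 samples. All siSOX2 samples were lower, with a log2 change of -3.09 (SE 0.87), and with a mean raw Ct of 33.6 it was the weakest of all assays tested. Other large changes with groups apart and a p of 0.05 or less before adjustment were miR-193b* (given above), miR-624 at -2.47, miR-653 at -1.90, miR-562 at 2.11 (over 5 samples) and miR-323-3p at 1.23. Their adjusted p-values lay between 0.094 and 0.22.

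**Figure D2:**
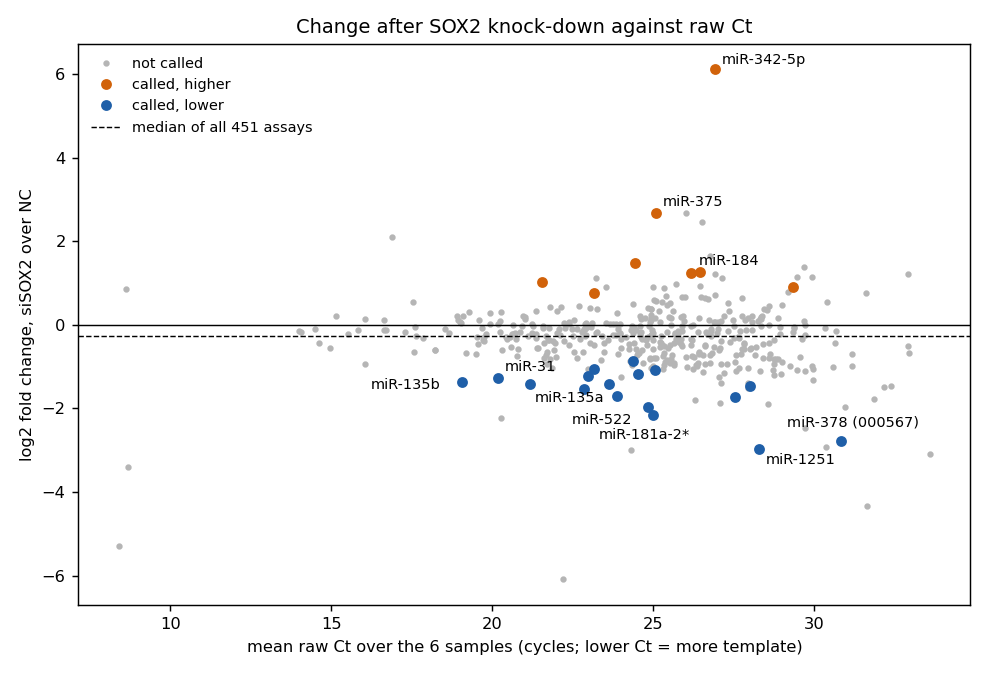
Log2 change of siSOX2 over NC (y axis) against the mean raw Ct over the 6 NTera-2 samples in cycles (x axis) for the 451 assays, orange for the 8 called higher, blue for the 17 called lower and grey for the rest. The dashed line is the median of all assays, -0.27. Of the 25 called, 13 had a mean raw Ct from 20 up to 25 and 10 from 25 up to 30.

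The panel as a whole lay below 0. The median log2 change was -0.27, and 322 of 451 assays (71.4%) were below 0. Against the NC mean, the median level over the assays was -0.10, 0.09 and 0.01 in the NC samples and -0.40, -0.31 and -0.13 in siSOX2 replicates 1, 2 and 3. It was -0.20 over the 256 assays of card A and -0.40 over the 195 of card B, with siSOX2 replicate 2 at -0.61 on card B. All 8 called rises were on card A, while 7 of the falls were on card A and 10 on card B. The balance of calls depended on the reference. The authors' reference on card A was the mean Ct of miR-16 and U6, and on card B that of miR-16-1*, RNU48 and U6. With the global mean as reference 9 assays were called higher and 7 lower (median 0.05), and with the global median 9 and 9 (median -0.06). With U6 alone it was 3 and 11, and with RNU44 and RNU48 3 and 10. Of the 25, 8 were called under all 4 of these other references, namely miR-375, miR-342-5p, miR-522, miR-31, miR-31*, miR-135a, miR-135b and miR-181a-2*, and the other 17 lost the call under at least 1 of them. No named miRNA that was called changed its direction under any of these. The U6 Ct on card A was 10.8 ± 0.179 (SD, n = 3) in NC and 10.6 ± 0.197 in siSOX2 samples, and miR-16 was at 18.6 ± 0.449 and 18.7 ± 0.204.

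The clusters of pluripotent cells were measured in all samples, as markers of the labelled cell type, with a mean raw Ct of 14.0 for miR-302b and 14.9 for miR-367, among the 5 lowest on card A. All 9 assays of the miR-302 cluster were below 0, from miR-367 at -0.55 (adjusted p = 0.12) to miR-302c* at -0.09, and 0 were called by limma, with 1 at a p of 0.05 or less before adjustment. Their median was -0.15, and it was 0.33 with the global mean and 0.34 with the global median as reference, where 2 and 4 of the 9 were below 0. In the miR-371 cluster, beside the fall of miR-372, miR-373 was at -0.70 (adjusted p = 0.43) and miR-371-3p at -0.97 (adjusted p = 0.17). The 13 assays of the cluster of miR-17 to miR-92a, which drives proliferation, had a median of -0.27 (0.08 with the global mean) and 0 calls, with 4 lower before adjustment. The 13 assays of its paralogs had a median of -0.25 (0.09 with the global mean), 0 calls and 0 at that unadjusted p. Markers of other cells were present too, at a higher Ct than miR-302b and miR-367. The blood miRNAs miR-223 and miR-150 were at 25.8 and 29.5, and 0 of the 5 measured blood miRNAs were called. The muscle miRNA miR-206 at 21.2 and the neural miRNA miR-9 at 21.3 had a lower Ct than miR-372 at 23.6 and miR-371-3p at 25.6. MiR-206 and miR-9 were not called.

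**Figure D3:**
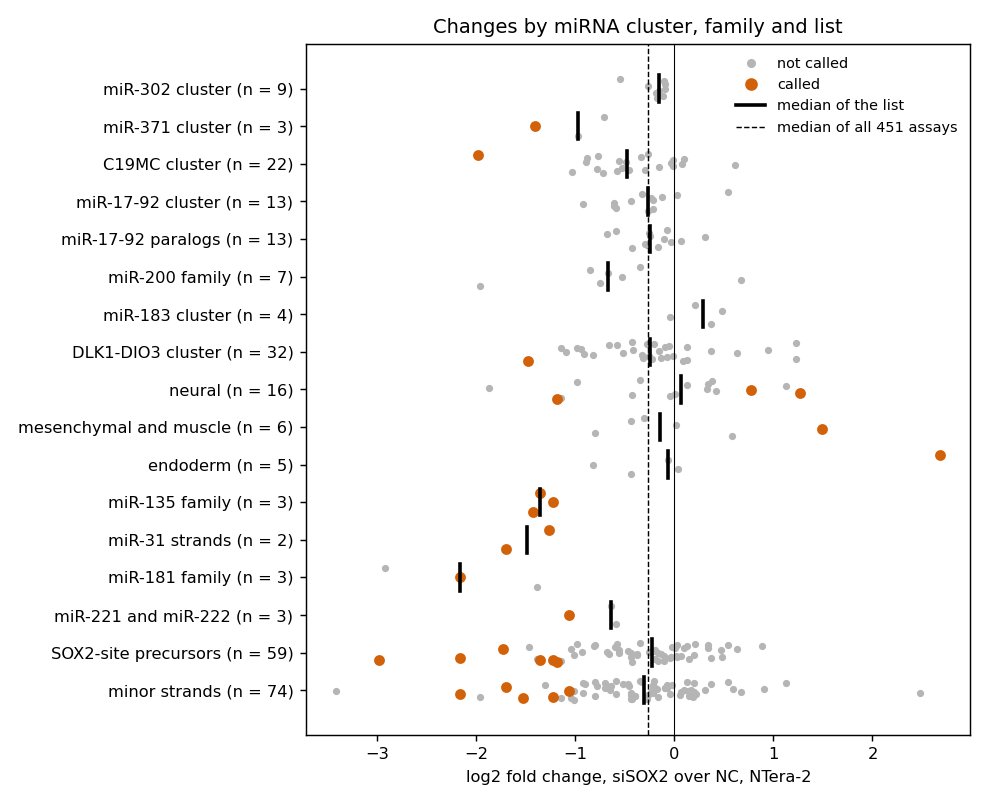
Log2 changes of siSOX2 over NC in NTera-2 cells (x axis) of the measured members of 17 clusters, families and lists (rows, with the number of assays), orange where called and grey where not. Thick bars are list medians and the dashed line is the median of all 451 assays. All members of the miR-135 family and both miR-31 strands are called and below 0, and in the miR-302 cluster all members lie between -0.55 and -0.09 with the authors' reference (2 of 9 are below 0 with the global mean).

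Of the families and lists with developmental roles, the 7 assays of the miR-200 family, which guards the epithelial state, had a median of -0.66, with 6 below 0 (85.7%, beside 71.4% of all assays) and 0 calls. Before adjustment 2 were lower (28.6%, beside 17.3% of all), among them miR-200c at -0.85 (adjusted p = 0.094). The 4 assays of the miR-183 cluster of sensory cells had a median of 0.29 and 0 calls. Of 16 neural assays 3 were called, beside 5.54% of all assays, as miR-218 and miR-138 rose and miR-7 fell, and with the block 0 of the 16 were called. The median was 0.06, and -0.02 with U6 as reference. MiR-124, the miRNA that is most typical of neurons, had a log2 change of -0.98 (SE 0.28, adjusted p = 0.071), and miR-124* -1.15 (adjusted p = 0.17). In the large DLK1-DIO3 cluster, imprinted and active in stem cells, 24 of 32 assays were below 0, 1 was called and the median was -0.24, near that of all assays. The 4 assays of the miR-34 family of p53 targets were all below 0 (median -0.47, 0 called), 2 of them also with the global mean, the 4 of the miR-506 and miR-888 clusters on the X chromosome all above 0 (median 0.44, 0 called), 2 of which were below 0 with U6, and of let-7 only 2 of 6 assays in the table were measured.

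SOX2 binding sites near miRNA genes, from chromatin data in embryonic stem cells, gave the study a list of 71 precursors, of which 59 assays were measured in NTera-2 cells. Of these 59, 6 fell and 0 rose by the adjusted p, namely miR-135b, miR-135b*, miR-181a-2*, miR-7, miR-577 and miR-1251. This was 10.2% of the list, beside 4.85% of the other 392 assays and 5.54% of all. MiR-135b and miR-135b* are strands of the same hairpin and count as separate assays. An assay was counted where any of its hairpins is on the list, as for miR-7, which comes from several. With the block, 2 of the 59 (3.39%) were called. The list had 41 assays below 0 and a median of -0.22, close to the -0.27 of all assays, and the median was 0.04 with the global mean as reference. The 12 assays that the study picked as down in NTera-2 cells and bound by SOX2 had 12 of 12 below 0 and 6 called. They were chosen on these samples, so their direction is no independent evidence.

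Matched by assay name as strands of a hairpin, 88 pairs of assays were measured. MiR-7, miR-26a and miR-92a each stand in more than 1 pair, and miR-374 was matched to miR-374-5p by name only. Assays that share a label, such as those of miR-378, were left out. Both were below 0 in 52 pairs and both above 0 in 15, and they differed in sign in 21. Both strands were called in 2 pairs, miR-31 and miR-135b, each time downward, and 1 strand in 8 pairs. The 9 pairs with both strands at a p of 0.05 or less before adjustment all moved in the same direction. Of these, miR-193b rose, and miR-31, miR-135b, miR-222, miR-455, miR-19a, miR-124, miR-590 and miR-625 were below 0. The pair of miR-342 had the largest distance among the pairs with a call, and the signs were opposite for miR-145 with miR-145* and for miR-7 with miR-7-2*. Over the 74 minor strands the median was -0.30 (0.21 with the global mean) with 5 called, all lower, and over the 377 other assays it was -0.25 (0.02 with the global mean) with 20 called, 8 of them higher.

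**Figure D4:**
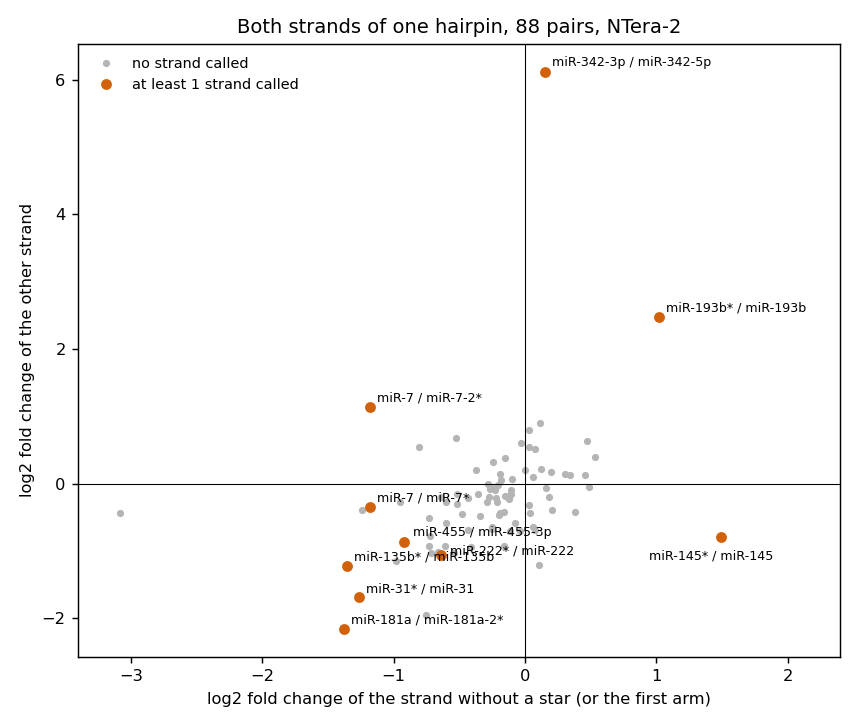
Log2 changes in NTera-2 cells for 88 pairs of assays matched by name as strands of the same hairpin. The strand without a star or the first arm is on the x axis and the other strand on the y axis, orange where at least 1 strand was called. MiR-31 and miR-135b lie low on both axes, and miR-342 lies at 0.15 on the x axis and 6.12 on the y axis.

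Among the 364 of 451 assays that had a sequence, 13 groups of at least 3 assays shared a seed. Assays without a sequence, such as miR-520b, could enter no group. Only 1 of the 13 groups held a called assay. This was the group of miR-302a to miR-302d, miR-372, miR-373, miR-520c-3p and miR-520d-3p (seed AAGUGCU), where all 8 were below 0 (4 with the global mean), miR-372 was called and the median was -0.30. The 7 assays with the seed AAAGUGC, which holds miR-17, miR-20a, miR-93 and miR-106a, were all below 0 (2 with the global mean) with a median of -0.12 and 0 calls. The 3 assays with the seed ACCCGUA, miR-99a, miR-99b and miR-100, had a median of -0.84 and 0 calls, with 2 at a p of 0.05 or less before adjustment.

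The change after the knock-down could be set against that in 2102Ep cells for 385 assays, among them 22 of the 25 called in NTera-2 cells. The difference between the lines was called in 17 assays (4.42%), 7 of which are among the 25, and with the block it was called in 1, miR-181a-2*. MiR-181a-2* was at -2.16 in NTera-2 and 1.68 in 2102Ep cells, a difference of -3.84 (SE 0.44, adjusted p = 0.0019, 0.0094 with the block). MiR-135b was at -1.35 and 0.10 (difference -1.45, SE 0.27, adjusted p = 0.016), miR-184 at 1.25 and -0.74 (adjusted p = 0.0019), miR-218 at 0.77 and -0.73 (adjusted p = 0.0046) and miR-193b at 1.02 and -0.35 (adjusted p = 0.038). For miR-375 the values were 2.68 and 3.69 and the difference, -1.0, was not called (adjusted p = 0.090), and for miR-31 they were -1.27 and -0.95 (adjusted p = 0.61). MiR-138 was at 1.27 and 1.45 (adjusted p = 0.83). MiR-1251, miR-342-5p and miR-1226* could not be compared. For 2102Ep siSOX2 replicate 3 the deposited raw Ct and dCt are out of line with each other, and its dCt was used as deposited. The Ct subtracted as the reference was 14.44 to 15.03 on card A and 16.32 to 16.90 on card B in NTera-2 samples. It was 17.92 to 18.44 and 24.31 to 25.01 in 2102Ep samples, so the lines were set against references of unlike level. With the same kind of reference in both lines, 13 differences were called with U6 and 22 with RNU44 and RNU48. With the global mean 21 were called, and with the global median 18. The part of the reference in the difference of any single assay was not tested. The lines also differ in siRNA dose and reagent, which cannot be told apart from the line itself. The count of called differences was 26 without NC replicate 2, 5 without NC replicate 3, 4 without siSOX2 replicate 1 and 8 without siSOX2 replicate 2.

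**Figure D5:**
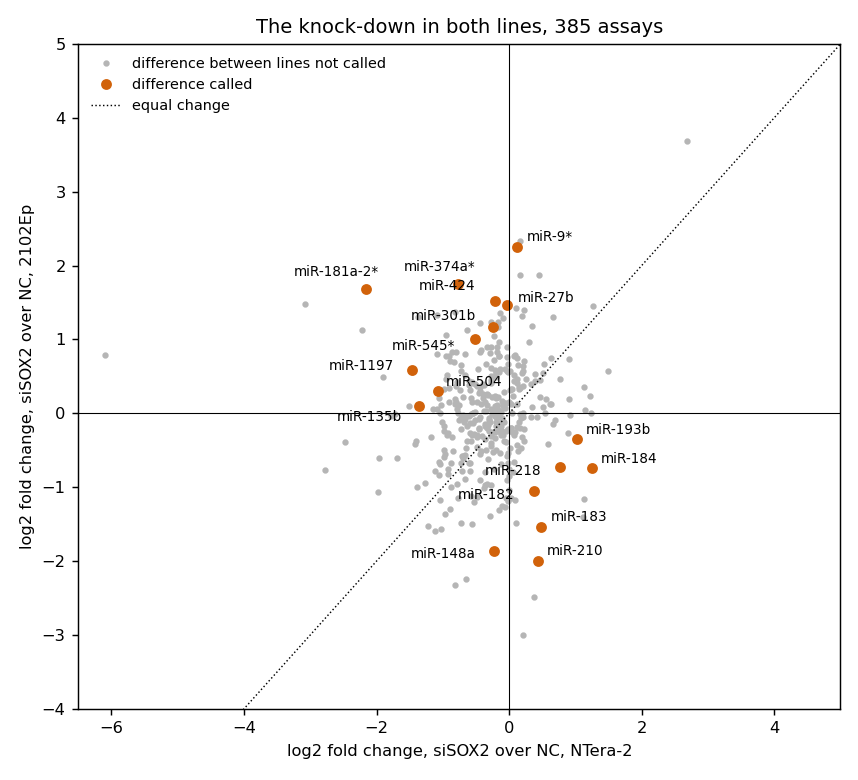
Log2 change of siSOX2 over NC in NTera-2 (x axis) and in 2102Ep cells (y axis) for 385 assays, orange and named where the difference between the lines was called (17 assays), with the dotted line at equal change. MiR-181a-2* lies at -2.16 and 1.68, and the point at the upper right is miR-375 at 2.68 and 3.69.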

How the data were processed

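The 6 NTera-2 samples were compared as siSOX2 against NC, with the 6 samples of 2102Ep in the same fit. The authors deposited raw Ct values exported from their PCR software and dCt values, both on the log2 scale. In 100% of the NTera-2 values the difference of both tables was the same number for all assays of a card (tolerance 0.02 cycles), which equals the mean Ct of miR-16 and U6 (card A) and of miR-16-1*, RNU48 and U6 (card B). Another deposited table holds the authors' fold changes and p-values and was not used. In the sample 2102Ep siSOX2 replicate 3, 97 of 432 values (22.5%) met this tolerance, so its raw Ct and dCt columns are out of line with each other. The raw Ct column was taken to be the misplaced one, which was not tested. The dCt of this sample was used as deposited, and its raw Ct was taken as dCt plus the constant of the card. With the authors' reference the sample enters the 2102Ep changes, the differences between the lines and the spread of the fit. An assay was tested where at least 2 of 3 samples of each group had a raw Ct under 40. Minus dCt was fitted with limma 3.58.1 in R 4.3.3 (4 group means over all 12 samples, eBayes, two-sided, Benjamini-Hochberg over all assays of a comparison). A log2 change (log2 of the fold change) is the NC mean of dCt less the siSOX2 mean. Median SD of dCt was 0.436 in NC and 0.312 in siSOX2 samples, and replicates correlated by 0.9405 to 0.9737 with 0 identical values. With 3 against 3 samples an exact two-sided permutation test of 1 assay cannot go below 0.1. On simulated data of the 451 assays for this comparison, 56.7%, 66.7% and 90% of changes of 1, 2 and 3 log2 units were recovered, with 2 false calls among 361 unchanged assays. The simulated errors were independent, without correlated replicates, a shift of the whole panel or a change of reference. The simulation therefore gives no rate of false calls for the real data, which have such features.

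Residual dCt of NC and siSOX2 samples of the same replicate number correlated by 0.118, 0.265 and 0.16. This was over the assays measured in all 6 samples, and those of different number correlated by at most 0.0538. Residuals of a group cancel out in each assay, so these lower values are no separate evidence of a pairing. The labels state none, and the calls are from the fit without the block. Results of the blocked fit stand beside calls that it changes.

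The members and lists were chosen with earlier results of these data known. Lists were described by counts and medians only. Named are all called assays, the 8 largest rises and falls at an unadjusted p of 0.05 or less with groups apart, the miRNAs that the paper names for NTera-2 cells, partner strands, the extremes of each list, the assays of lowest Ct and reference RNAs, and the 5 smallest adjusted p of the difference between the lines. Other alternatives were the reference (U6, RNU44 with RNU48, global mean, global median), a mean raw Ct of at most 35 or 32, complete assays, unmeasured values at Ct 40, single-assay tests of equal or unequal variance, NTera-2 samples alone, eBayes with a trend and each sample left out. Leaving out raw Ct under 10 was chosen after seeing the data. Mature names were matched to RefSeq (GRCh38.p14) for 364 of 451 assays. Host genes are gene spans of either strand, and exons were not used here. Pre-amplified PCR gives no molecule counts, and the few samples and, for weak assays, the high Ct limit the precision. In bulk RNA, fewer cells of a type and less RNA per cell cannot be told apart. SOX2 mRNA and protein were not analysed here.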

Additional observations from a re-analysis of the deposited data

Results flagged for a closer look

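The change after SOX2 knock-down differed between NTera-2 and 2102Ep cells in 17 assays, by the test of the difference itself (limma, adjusted p under 0.05). The difference, NTera-2 minus 2102Ep on the log2 scale, was above 0 for miR-210 (2.44), the hypoxia miRNA, miR-183 (2.02), miR-184 (2.00), miR-148a (1.63), miR-218 (1.5), miR-182 (1.43) and miR-193b (1.37). It was below 0 for miR-181a-2* (-3.84), miR-374a* (-2.53), miR-9* (-2.13), miR-1197 (-2.06), miR-424 (-1.74), miR-545* (-1.52), miR-27b (-1.50), miR-135b (-1.45), miR-301b (-1.40) and miR-504 (-1.37). In 10 of the 17, miR-9* and miR-210 among them, the change in NTera-2 cells alone was not called. With the replicate block the difference was called for miR-181a-2* (adjusted p = 0.0094) and for none of the other 16. The dCt of 2102Ep siSOX2 replicate 3, which is out of line with its raw Ct, was used as deposited. The reference Ct differs between the lines, most on card B. With the same kind of reference in both lines the count was 13 (U6), 22 (RNU44 and RNU48), 21 (global mean) and 18 (global median). The part of the reference in the difference of any single assay was not tested. The siRNA dose, the reagent and, as the paper reports, the SOX2 mRNA left after knock-down differ too and cannot be told apart from the line. By Western blot the paper detected no SOX2 protein in siSOX2 cells of either line.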

How the results depend on the processing

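The 25 calls became 14 with U6 as reference, 13 with RNU44 and RNU48, 16 with the global mean, 9 with the equal-variance and 3 with the unequal-variance test of each assay alone, 11 in the NTera-2 samples alone, where fewer samples give the spread, and 9 with the replicate block. They lay between 10 and 24 when a sample was left out, the lowest without NC replicate 3, with 15 without siSOX2 replicate 1 and 14 without siSOX2 replicate 2. The 98 assays with a p of 0.05 or less before adjustment became 63 with the unequal-variance test, 74 to 120 with a sample left out and 102 with the replicate block. The median change went to 0.0508 with the global mean and -0.0628 with the global median, which remove a common shift by construction, and lay between -0.33 and -0.22 with a sample left out. The 17 differences between the lines became 1 with the replicate block and 4 to 26 with a sample left out. Where no construction is named, the cause was not tested. All other values of these counts and medians stayed within 1.5 times or within the spread between the siSOX2 samples. Of 1786 values of 90 named miRNAs under alternatives, 1562 kept their direction and their side of the threshold, 184 lost it, 10 gained it and 30 changed sign. The 30 belong to 12 miRNAs, 0 of them called. With the global mean the changes were 0.044 for miR-106a, 0.0796 for miR-10b*, 0.4664 for miR-183*, 0.0488 for miR-302b, 0.4242 for miR-302c*, 0.4045 for miR-302d, 0.3036 for miR-34b and 0.1675 for miR-7*. With the global median they were 0.0909 for miR-10b*, 0.4777 for miR-183*, 0.4355 for miR-302c*, 0.4157 for miR-302d, 0.3148 for miR-34b and 0.1788 for miR-7*. With U6 they were -0.0307 for miR-342-3p and -0.0443 for miR-509-5p, and with RNU44 and RNU48 0.0201 for miR-183*. With a sample left out, the range spanned 0 for let-7g* (-2.3629 to 0.0636, above 0 without siSOX2 replicate 3), miR-106a (-0.2608 to 0.0011), miR-183* (-0.4752 to 0.3126), miR-302c* (-0.2638 to 0.0619), miR-302d (-0.1914 to 0.0271), miR-342-3p (-0.1102 to 0.4438), miR-34b (-0.4498 to 0.0261), miR-497 (-0.0842 to 1.5501) and miR-509-5p (-0.4764 to 0.4987). With unmeasured values at Ct 40 miR-145 lost its call (adjusted p = 0.91) with its change still at 1.49. All its NTera-2 values were measured, so none was set to 40 there, and the limma fit takes the spread from all 12 samples. MiR-138 lost its call (adjusted p = 0.31) with a change of 5.62 in place of 1.27. The references U6 and RNU44 with RNU48 had no value for 2102Ep siSOX2 replicate 3, which was then left out. Weak assays limit the precision, with a median standard error of 0.87 at a mean raw Ct of 30 or more beside 0.22 between 10 and 20.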

Other observations

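A few assays gave values far outside the range of the rest. MiR-609, miR-497 and miR-23b*, all on card B, had mean raw Ct values of 8.40, 8.64 and 8.69, below the lowest of any other assay, 14.0 for miR-302b. Their log2 fold changes were -5.28 (standard error 2.68), 0.86 (standard error 0.94) and -3.41 (standard error 1.44), and 0 of them were called. The dCt of miR-639 ran from 0.29 to 4.08 in NC and from 3.87 to 14.6 in siSOX2 samples, and its log2 fold change of -6.09 (standard error 2.17), the lowest of all assays, was not called (adjusted p = 0.14). Leaving out raw Ct under 10 kept the count at 25.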
